A study of Oncorhynchus mykiss with 6 samples.

Results

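The miR-17/92 cluster and its relatives were followed here in the liver of rainbow trout of opposite social status. Members were the sequences of the deposited small RNA table named after miR-17, miR-18, miR-19, miR-20, miR-25, miR-92, miR-93, miR-106 or miR-363, and 71 of the 1389 listed sequences met this rule. Livers came from juvenile rainbow trout held in dyads for 4 d, with the genotype given as wild type and the strain as Walbaum. The fish were scored as socially subordinate (SS) or socially dominant (SD), with 3 fish per group and 1 library per fish. The study's methods state that SD fish generally took the food offered, that SS fish in effect fasted and that cortisol was higher in SS fish, so social status, feeding and cortisol cannot be told apart in this comparison. The libraries were labelled 4A, 6A and 1B in the SS group and 4B, 6B and 21A in the SD group.

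In mammals the miR-17/92 cluster is a single primary transcript that is cut into miR-17, miR-18a, miR-19a, miR-20a, miR-19b and miR-92a. Related clusters, left by ancient duplications, carry miR-106, miR-20b, miR-19b, miR-92a and miR-363, among others, in one case and miR-106b, miR-93 and miR-25 in the other. A miRNA finds its targets mainly through its seed, the bases from position 2 to position 8, and miRNAs that share a seed are treated as a family. The mammalian cluster is switched on by the transcription factors MYC and E2F, promotes cell division and restrains apoptosis, and is raised in hepatocellular carcinoma. The level of each mature miRNA is also set by steps after transcription and by paralogous copies, of which salmonid genomes hold more after a genome duplication of their own.

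The sequences are shown first because the families are defined by their letters. They are given 5′ to 3′ with the seed in capitals, and were read from the deposited table, which uses T for U. A name opens with the fish whose miRNA was matched, dre for zebrafish, ssa for Atlantic salmon, ola for medaka and ccr for carp. It closes with the bases gained or lost at the left (L) or right (R) end relative to that miRNA, or with a substitution. Genomic positions in the trout were not used here. The most abundant arms of miR-17, miR-20, miR-93 and miR-106, called the miR-17 family below, shared 1 seed.
ssa-miR-17-5p_R-1: cAAAGTGCttacagtgcaggta
ssa-miR-20a-5p: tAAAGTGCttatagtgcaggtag
ssa-miR-106a-5p: tAAAGTGCttacagtgcaggta
ssa-miR-93a-5p: aAAAGTGCtgtttgtgcaggtag
Counting from the 5′ end, the miR-17-5p and miR-106a-5p sequences differed only by C1T over their 22 shared bases, and miR-20a-5p differed from miR-17-5p by C1T and C12T, so none of these differences touched the seed.

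The miR-18 seed differs from that of miR-17 by a single base.
dre-miR-18b-5p_1ss11TC: tAAGGTGCatctagtgcagata
ssa-miR-18a-5p: tAAGGTGCatctagtgtagtta
The most abundant miR-19 sequence carried an added base at its 5′ end, which moved the capitals by 1 position relative to the other miR-19 forms.
dre-miR-19a-3p_L+1R-2: tTGTGCAAatctatgcaaaact
ssa-miR-19a-3p_R+1: tGTGCAAAtctatgcaaaactgt
ssa-miR-19c-3p_R-1: tGTGCAAAtccatgcaaaact
ssa-miR-19d-3p_R-1: tGTGCAAAcccaagcaaaact
miR-25, miR-92 and miR-363, called the miR-92 family below, share a seed in their 3p arms. The miR-92a-3p and miR-92b-3p sequences differed by T10C over 20 shared bases, and the 3 forms of miR-92a-3p below were the same up to the end of the shortest and differed in what followed it.
ssa-miR-92b-3p_R-2: tATTGCACtcgtcccggcct
ssa-miR-92a-3p: tATTGCACttgtcccggcctgt
dre-miR-92a-3p_R+1: tATTGCACttgtcccggcctgtt
ola-miR-92a_R+4: tATTGCACttgtcccggcctgtaat
dre-miR-92b-3p_R+2_1ss22CA: tATTGCACtcgtcccggcctcaat
dre-miR-25-3p: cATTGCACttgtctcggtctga
dre-miR-363-3p_R-1: aATTGCACggtatccatctgt

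Members were a small part of the hepatic miRNA pool. They took 72117 of the reads assigned in the table, or 0.633%, and between 0.473% and 0.791% of a library. Library totals in the table ranged from 1183289 to 3382970 reads, and levels are given below as normalized reads, the deposited counts after division by the authors' size parameter. Reads with more than one match were split among the matching sequences, and 40 members had a fractional count in at least 1 library, so the split between near-identical members is uncertain. All members together summed to a mean of 10605 ± 1124 normalized reads for SS and 11725 ± 599.6 for SD fish (± SD, n = 3 per group), and the groups overlapped. Within each group all pairs of libraries differed beyond sampling noise (chi-square per degree of freedom of at least 99.8). Each library was counted as its own sample because there was 1 library per fish.

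The order of the families was steep. The miR-92 family held 79.9% of member reads, miR-19 held 13.5%, the miR-17 family 5.59% and miR-18 0.936%, with both arms of each counted. The 4 most abundant members, miR-92b-3p_R-2, miR-92a-3p, miR-92a-3p_R+1 and miR-25-3p, made up 76.0% of member reads, and the 10 most abundant 92.4%. miR-363 did not reach a measurable level. Its 3p sequence was seen in SD 21A alone, at 0.564 normalized reads, and a short sequence named after its precursor in SS 4A alone, at 1.62 normalized reads. A count of 0 allows up to 3 reads, which is between 1.69 and 4.32 normalized reads depending on the library and covers counting error only. Only 2 sequences outside the rule shared a seed with a member, with 5 and 2.5 reads in all libraries together, so the seed totals below come almost wholly from members.

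Of the 71 members, 35 were seen in every library and 23 passed edgeR's filter on low counts. The 48 others held 0.633% of member reads and had mean levels of at most 7.72 normalized reads. None of the 23 tested members differed between SS and SD fish at an adjusted p under 0.05 in edgeR's quasi-likelihood test, where 2 of all 338 tested sequences did (0.592%). Their smallest adjusted p was 0.345. At an unadjusted p under 0.05, 3 members were lower and 0 were higher in SS fish, against 3.85% of all tested sequences lower and 7.1% higher. All 3 were longer 3′ forms of miR-92a-3p or miR-92b-3p. Among them, ola-miR-92a_R+4 and dre-miR-92b-3p_R+2_1ss22CA were in the authors' Groups 3a and 3b, matched to fish miRNAs but not to the trout genome. Those groups held 7 and 17 of the 71 members. DESeq2 called 0 members, where it called 7 of all 338 tested sequences. It left 1 of the 3 longer forms, dre-miR-92a-3p_R+1, at an unadjusted p under 0.05. At that cut DESeq2 had 8 of all 338 sequences lower and 28 higher in SS fish. In whole liver, fewer cells of a type and less RNA per cell cannot be told apart.

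**Figure D1:**
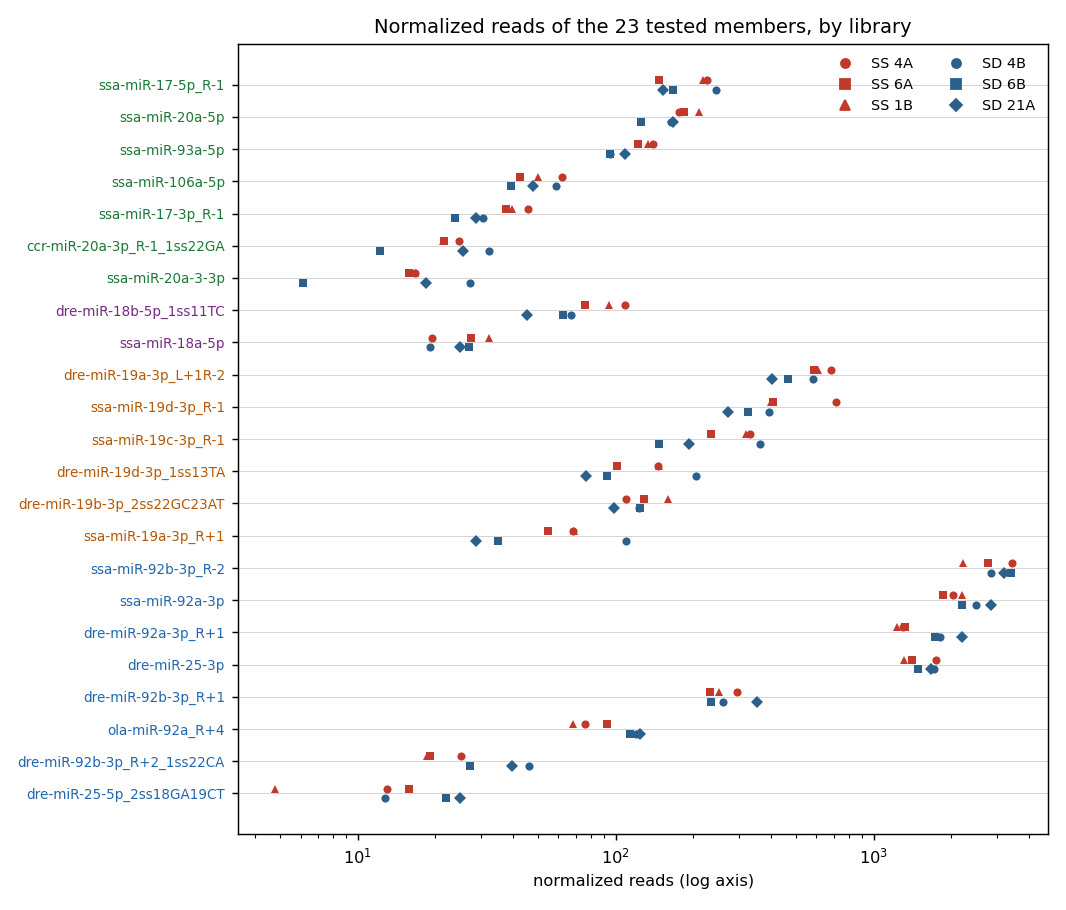
Normalized reads on a log axis for each of the 23 tested members, with SS libraries in red and SD libraries in blue and 1 point per library. The 4 most abundant, of miR-92 and miR-25, sit between 1228 and 3431, and dre-miR-92a-3p_R+1 is among the few with all SS points left of all SD points.

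The fitted changes took opposite signs in the families. All 8 tested members of the miR-92 family had a log2 fold change below 0 (SS over SD, median -0.46). Of the 15 tested members of the other groups, 13 had one above 0 (median 0.19). Over all 338 tested sequences 49.7% lay above 0 and 50.3% below, with a median of -0.02. These are fitted values, most of them smaller than 2 SE, and forms of a miRNA share reads, so the counts describe the members and are not independent of each other. Groups that did not overlap were counted too. Every SS library was above every SD library for 6 tested members, none of them of miR-25 or miR-92, and below for 3, all of them of miR-92, against 10.7% and 7.69% of all tested sequences.

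The scale of the libraries bears on these signs. With mappable reads as library size the median of all tested sequences moved to -0.23, the 8 members of miR-25 and miR-92 stayed below 0, and the other 15 split into 8 above and 7 below. A ratio between families within a library does not depend on this scale, and is given after the families.

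**Figure D2:**
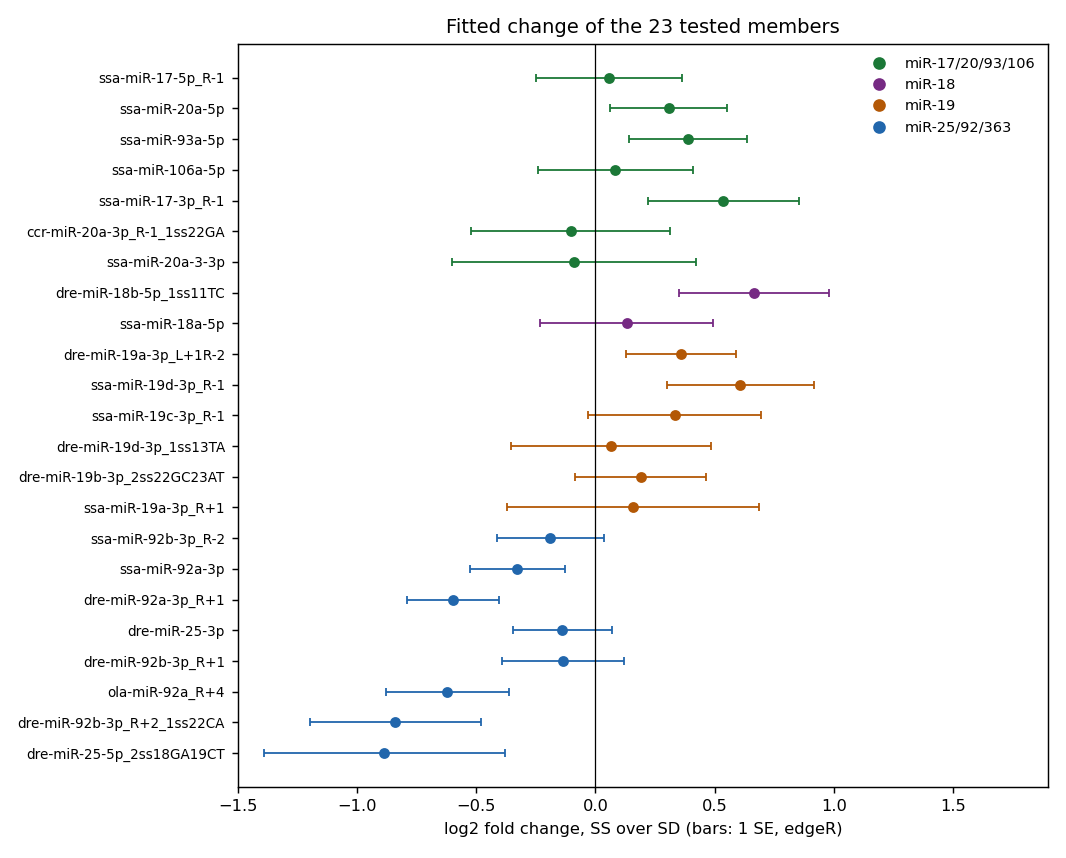
Fitted log2 fold change (SS over SD, edgeR) of the 23 tested members, with bars of 1 SE and colours for the 4 families, labelled by miRNA number. The 8 members of miR-25 and miR-92 lie left of 0 and 13 of the other 15 right of it, and 11 of the 23 are within 0.2 of 0.

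Longer miR-92a-3p forms carried the lowest unadjusted p, and their cluster of origin in the trout was not derived here. In mammals miR-92a is known for restraining blood vessel growth in endothelial cells. The form with 1 base added at its 3′ end, dre-miR-92a-3p_R+1, read 1300, 1328 and 1228 normalized reads in SS 4A, 6A and 1B, against 1816, 1737 and 2197 in SD 4B, 6B and 21A. The SS libraries lay close together below the SD libraries. Its log2 fold change was -0.60 ± 0.19 (SE, unadjusted p = 0.0159, adjusted p = 0.345, edgeR). This form is 1 of 3 members among the miRNAs that the study singled out on these same libraries, together with ssa-miR-93a-5p and dre-miR-18b-5p_1ss11TC, so its difference here is not independent evidence.

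The longest of the 3, ola-miR-92a_R+4, read 76.3, 92.2 and 68.5 normalized reads in SS 4A, 6A and 1B, against 119, 114 and 125 in SD 4B, 6B and 21A, again with no overlap. Its log2 fold change was -0.62 ± 0.26 (SE, unadjusted p = 0.0441, adjusted p = 0.438, edgeR). The unextended ssa-miR-92a-3p, the second most abundant member, read 2035, 1852 and 2205 in SS and 2505, 2205 and 2844 in SD libraries. SS 1B and SD 6B were level at the border of the groups, and the log2 fold change was -0.33 ± 0.20 (SE, adjusted p = 0.533, edgeR). The forms named miR-92a-3p, which leave out R+4, were also summed. The mean total was 3317 ± 127 for SS and 4435 ± 559 for SD fish (± SD, n = 3 per group), with no overlap. The log2 fold change of this sum was -0.43 ± 0.19 (SE, adjusted p = 0.460, edgeR).

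Of the reads named miR-92a-3p, which leave out the R+4 form, the R+1 form made up a smaller share in the SS libraries. It took 39.0% of them in SS 4A, 41.7% in SS 6A and 35.8% in SS 1B, against 42.0%, 44.1% and 43.6% in SD 4B, 6B and 21A. The groups did not overlap, but SS 6A and SD 4B were 0.290 percentage points apart. Both the R+1 and the unextended form had fractional counts, and the part of split reads in this share was not tested. The means differed by -4.40 percentage points (SS minus SD, two-sided exact permutation test, p = 0.1), and 0.1 is the smallest p that 3 fish against 3 can give. The shares of 2 other extended forms overlapped between groups. The R+4 form took 1.95% to 2.82% of the 3 miR-92a-3p forms in SS and 2.41% to 2.80% in SD libraries, and the R+1 form of miR-92b-3p took 7.63% to 10.1% of its 3 forms in SS and 6.38% to 9.82% in SD libraries, with the higher mean in SS fish (8.54% and 8.15%).

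**Figure D3:**
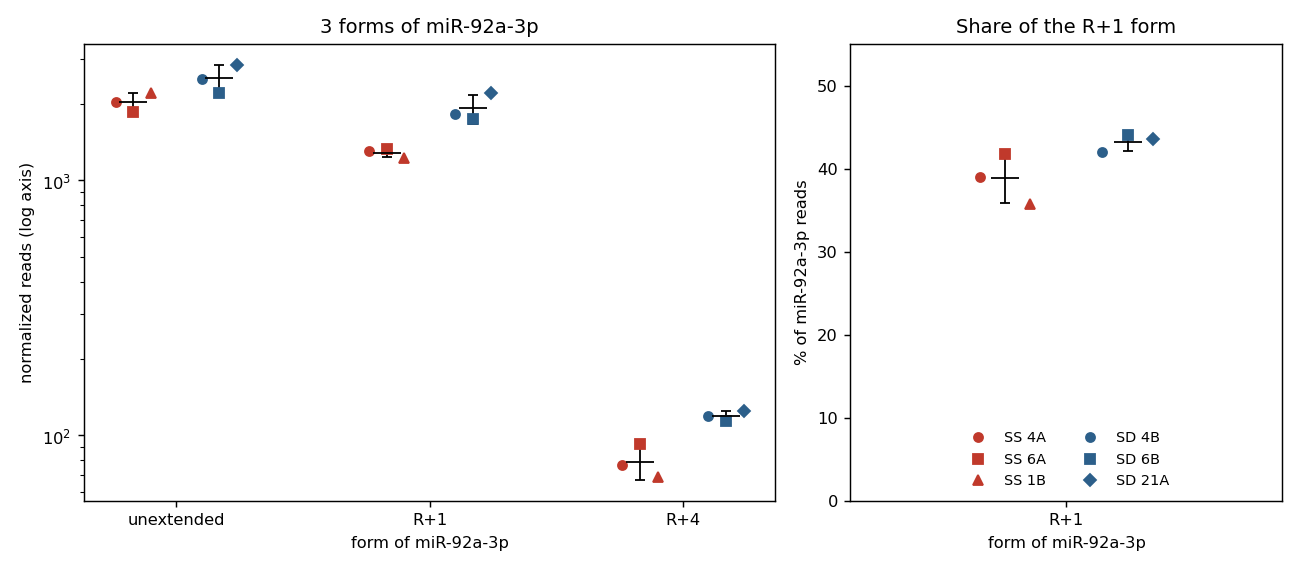
Left, normalized reads (log axis) of the unextended, R+1 and R+4 forms of miR-92a-3p in each library, with group mean and SD as black bars. Right, share of the R+1 form in the reads named miR-92a-3p, without R+4, in %. It ran from 35.8 to 41.7 in SS and from 42.0 to 44.1 in SD libraries.

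Reads of miR-92b-3p, which comes from a locus of its own in mammals, gave a smaller difference. The most abundant member of all, ssa-miR-92b-3p_R-2, read 3431, 2788 and 2230 normalized reads in SS 4A, 6A and 1B, against 2845, 3418 and 3217 in SD 4B, 6B and 21A. The highest and the lowest library were both SS, and the log2 fold change was -0.19 ± 0.22 (SE, adjusted p = 0.736, edgeR). For dre-miR-92b-3p_R+1 the values were 296, 232 and 252 in SS and 260, 235 and 354 in SD libraries, with a log2 fold change of -0.14 ± 0.25 (SE, adjusted p = 0.845, edgeR). The rare form dre-miR-92b-3p_R+2_1ss22CA read 25.2, 18.97 and 18.5 in SS and 46.1, 27.3 and 39.7 in SD libraries, a log2 fold change of -0.84 ± 0.36 (SE, unadjusted p = 0.0488, adjusted p = 0.448, edgeR). Its level did not overlap between groups. As a share of the 3 miR-92b-3p forms it took 0.624% to 0.741% in SS and 0.742% to 1.46% in SD libraries, so that SS 1B and SD 6B were level.

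miR-25 shares the seed of miR-92 but belongs to the miR-106b cluster in mammals. dre-miR-25-3p read 1753, 1410 and 1315 normalized reads in SS 4A, 6A and 1B, against 1709, 1488 and 1668 in SD 4B, 6B and 21A. SS 4A was the highest of all libraries and the groups overlapped (log2 fold change -0.14 ± 0.21 SE, adjusted p = 0.800, edgeR). Its passenger arm, dre-miR-25-5p_2ss18GA19CT, chosen for mention after its values were seen, had the lowest fitted value of the members, -0.89 ± 0.51 (SE, adjusted p = 0.514, edgeR), from 4.75 to 15.8 normalized reads in SS and from 12.7 to 24.8 in SD libraries. Summed over all sequences that carry it, the seed of the miR-92 family gave a mean of 7986 ± 831 normalized reads for SS and 9659 ± 684 for SD fish (± SD, n = 3 per group), and a log2 fold change of -0.26 ± 0.16 (SE, adjusted p = 0.609, edgeR on seed totals). Among all seeds of the table, 2 passed the threshold (0.926% of those tested), neither of them a member's.

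For miR-19, which in mammals carries much of the growth-promoting activity of the cluster, all 6 tested sequences had fitted values above 0, from 0.07 to 0.61. The shifted form dre-miR-19a-3p_L+1R-2 read 686, 586 and 609 normalized reads in SS 4A, 6A and 1B, against 581, 466 and 403 in SD 4B, 6B and 21A. The groups did not overlap, although SS 6A and SD 4B were nearly level, and the log2 fold change was 0.36 ± 0.23 (SE, adjusted p = 0.533, edgeR). This form held 84.2% to 93.3% of the reads of both forms of miR-19a-3p shown, so most miR-19a-3p reads of these livers carried the shifted 5′ end.

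ssa-miR-19d-3p_R-1 read 716, 409 and 401 in SS and 394, 325 and 272 in SD libraries. SS 4A stood far above the other 5 libraries (log2 fold change 0.61 ± 0.31 SE, adjusted p = 0.476, edgeR), and without it the log2 fold change was 0.31. ssa-miR-19c-3p_R-1 read 333, 234 and 319 in SS and 361, 147 and 193 in SD libraries, with SD 4B the highest of all (0.33 ± 0.36 SE, adjusted p = 0.732, edgeR). Its log2 fold change was 0.72 without SD 4B and 0.084 without SD 6B. SD 4B was also the highest library for the longer forms ssa-miR-19a-3p_R+1, at 109 against 28.8 and 34.8 in the other SD libraries, and dre-miR-19d-3p_1ss13TA, at 205 against 77.0 and 92.9. Both forms were named after their values were seen. Seed totals gave 0.40 ± 0.33 (SE, adjusted p = 0.731) for the usual miR-19 seed and 0.39 ± 0.27 (SE, adjusted p = 0.670, edgeR on seed totals) for the shifted one.

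SD 4B was close to the SS libraries in both miR-17 and miR-19. It was also the library with the fewest mappable reads, 2420009, and the lowest table total, 1183289 reads. The part of depth in its values was not tested. The sum of the erythrocyte markers miR-144 and miR-451 was 7856, 1822 and 3985 normalized reads in SS 4A, 6A and 1B, against 6719, 4950 and 5752 in SD 4B, 6B and 21A. Summed miR-19 reads were 2088, 1528 and 1719 in the same SS libraries and 1793, 1199 and 1085 in the SD libraries. Both sums were highest in 4A within the SS group and in 4B within the SD group, but SD 6B and 21A had higher marker sums and lower miR-19 sums than SS 6A and 1B, and SD 21A was above SD 6B in markers and below it in miR-19. Their part in the miR-19 values was not tested.

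miR-18 was the rarest of the measurable families. In mammals miR-18a represses the glucocorticoid receptor, which binds cortisol. dre-miR-18b-5p_1ss11TC read 109, 76.4 and 94.1 normalized reads in SS 4A, 6A and 1B, against 67.3, 62.3 and 45.1 in SD 4B, 6B and 21A. All SS libraries lay above all SD libraries, and the log2 fold change was 0.67 ± 0.31 (SE, unadjusted p = 0.068, adjusted p = 0.449, edgeR). It is among the miRNAs the study singled out on these libraries. ssa-miR-18a-5p, with the same seed, read 19.5, 27.4 and 32.3 in SS and 19.1, 26.9 and 24.8 in SD libraries, which overlapped, and its log2 fold change was 0.13 ± 0.36 (SE, adjusted p = 0.898, edgeR). The seed total gave 0.57 ± 0.31 (SE, adjusted p = 0.538, edgeR on seed totals).

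In mammals the miR-17 family represses the cell cycle inhibitor p21 and other brakes on cell division. Of its 7 tested members, 5 had fitted values above 0 and 2 below. Whether members differed from each other was not tested. ssa-miR-17-5p_R-1 itself read 226, 148 and 219 normalized reads in SS 4A, 6A and 1B, against 246, 167 and 153 in SD 4B, 6B and 21A, with SD 4B the highest, and the log2 fold change was 0.06 ± 0.30 (SE, adjusted p = 0.936, edgeR). ssa-miR-106a-5p, which differs from it by its first base, read 61.9, 42.5 and 50.1 in SS and 58.6, 39.4 and 47.9 in SD libraries (0.08 ± 0.33 SE, adjusted p = 0.920, edgeR). These near-identical sequences had the same order of libraries within the SS group but not within the SD group, and neither separated the groups.

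Of the 5 other tested members of the family, 3 did not overlap between groups and 2 did. The 3 were higher in SS, as were 10.7% of all tested sequences without overlap. ssa-miR-93a-5p, of the miR-106b cluster in mammals, read 139, 122.5 and 134 in SS and 94.7, 95.4 and 108 in SD libraries. The SS libraries were all higher, with a log2 fold change of 0.39 ± 0.25 (SE, unadjusted p = 0.159, adjusted p = 0.533, edgeR), and this member too was chosen by the study on these libraries. ssa-miR-20a-5p read 176, 184 and 211 in SS and 164, 125.9 and 166 in SD libraries (0.31 ± 0.25 SE, adjusted p = 0.638, edgeR). The gap between SS 4A and SD 21A was small beside the spread within each group. The passenger arm ssa-miR-17-3p_R-1, named after its values were seen, ran from 37.5 to 45.8 in SS and from 23.8 to 30.5 in SD libraries (0.54 ± 0.32 SE, adjusted p = 0.526, edgeR). Its ratio to miR-17-5p overlapped between groups, from 18.03 to 25.4 reads per 100 in SS and from 12.4 to 18.8 in SD libraries. Both members that overlapped were passenger arms of miR-20a. ccr-miR-20a-3p_R-1_1ss22GA ran from 21.4 to 24.7 in SS and from 12.2 to 32.4 in SD libraries (-0.10 ± 0.42 SE, adjusted p = 0.920, edgeR), and ssa-miR-20a-3-3p from 15.8 to 16.6 and from 6.11 to 27.3 (-0.09 ± 0.51 SE, adjusted p = 0.937, edgeR). The seed total of the 5p arms gave 0.24 ± 0.27 (SE, adjusted p = 0.788, edgeR on seed totals).

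Summed by family over both arms, the miR-92 family gave 8955, 7758 and 7339 in SS 4A, 6A and 1B, against 9325, 9261 and 10488 normalized reads in SD 4B, 6B and 21A, all SS libraries being lower. The miR-18 sum was 141.2, 109 and 136 in SS and 91.5, 99.0 and 72.7 in SD libraries, all SS libraries being higher. The miR-19 sums (means of 1779 ± 285 for SS and 1359 ± 380.1 for SD fish) and those of the miR-17 family (679.9 ± 71.8 and 586 ± 94.1, all ± SD with n = 3) overlapped between groups.

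Set against the miR-92 family within each library, the other families were relatively more abundant in every SS fish. miR-19 gave 23.3, 19.7 and 23.4 reads per 100 reads of the miR-92 family in SS 4A, 6A and 1B, against 19.2, 12.9 and 10.3 in SD 4B, 6B and 21A. The miR-17 family gave 8.01, 7.70 and 9.88 in SS and 7.36, 5.39 and 5.48 in SD libraries. miR-18 gave 1.58, 1.41 and 1.85 in SS and 0.981, 1.07 and 0.694 in SD libraries. In each ratio the lowest SS library was above the highest SD library, by 0.469 reads per 100 for miR-19, 0.340 for the miR-17 family and 0.342 for miR-18, and for miR-19 and the miR-17 family that SD library was 4B. These ratios share their denominator and were noticed in these data, so they are given as a description with no test.

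**Figure D4:**
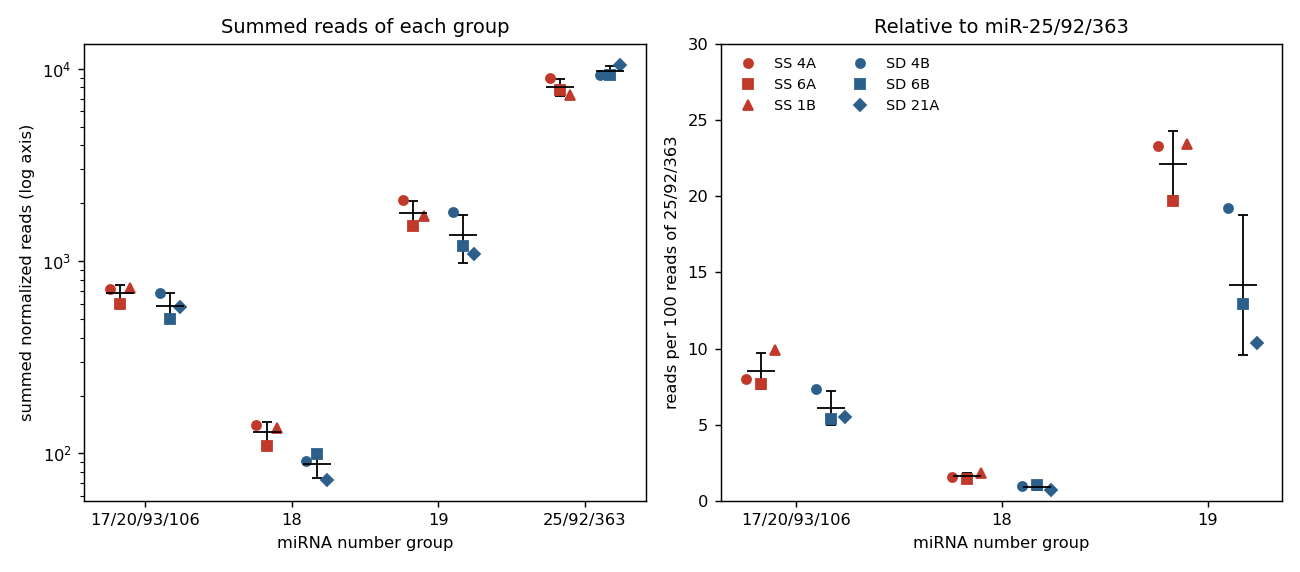
Left, summed normalized reads (log axis) of the 4 families, labelled by miRNA number, in each library, with group mean and SD as black bars. Right, reads of 3 groups per 100 reads of the miR-92 family in the same library, where the SS libraries (19.7 to 23.4 for miR-19) lie above the SD libraries (10.3 to 19.2).

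Cell type markers did not separate the groups. The liver identity was clear, with miR-122 sequences summing to between 576193 and 813536 normalized reads in SS and between 597730 and 702931 in SD libraries. All 8 marker lists, for hepatocytes, erythrocytes, leukocytes, endothelium, stroma, epithelium, pancreas and muscle, overlapped between SS and SD fish, and no number of a list was at 0. The endothelial marker miR-126 ranged from 15357 to 26223 in SS and from 15920 to 19380 in SD libraries, and the leukocyte sum from 1833 to 2173 and from 1585 to 2517. The pancreas sum was highest in SS 4A, at 607 against 153 to 226 in the other 5 libraries.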

How the data were processed

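Small RNA of liver from 3 SS and 3 SD rainbow trout was sequenced, with 1 library per fish, so p-values measure the spread between these fish. The authors filtered the reads with the ACGT10-miR pipeline, matched them by Bowtie (version 1.1.1 per the submitters' processing notes) to fish miRNAs of miRBase and to the rainbow trout genome, and deposited expected counts for 1389 sequences, with reads of more than one match split among them. They also deposited a normalized signal, called normalized reads here, which is each count over its library's size parameter (0.694 to 1.77, derivation not given in the sources used here), with 0 written as 0.001. A deposited summary gives counts of raw and mappable reads, the latter from 2420009 to 6061431 per library. For the authors' own test the paper names DESeq2 and t-tests, with a cut of p < 0.05 and no adjustment mentioned. That cut is unlike the adjusted threshold used here, so calls under the 2 cannot be set side by side. None of the authors' test values were used, but the miRNAs that test singled out entered the choice of members to name.

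For levels, 0 was restored where 0.001 was written. Counts were rounded, filtered with filterByExpr (minimum count 10), scaled by TMM and tested over all 338 sequences left with edgeR 4.0.16 (quasi-likelihood, R 4.3.3), with Benjamini-Hochberg adjustment over all of them and a threshold of 0.05. Seeds were bases 2 to 8, and seed totals over the whole table were fitted in the same way. The edgeR procedure was tested on simulated counts without split reads, where the changes put in were larger than any fitted for a tested member. That test does not cover changes as small as those of the members. The share of the R+1 form was compared by an exact permutation test (scipy 1.17.1). The members, marker lists and rules were chosen with earlier results of these data known. Members named were the most abundant of each miRNA number, the 10 most abundant and those with an unadjusted p under 0.05. The 3 among the miRNAs singled out by the study were named too. Others are marked where named, or were named because only a few members were counted there. ssa-miR-18a-5p was given as the other tested sequence of miR-18. Alternatives were DESeq2 1.42.0, limma 3.58.1 on log2 normalized reads with 1 or 10 added, and other size factors, filters and seed lengths. Fractional counts, a block for the number in the library label (the replicate block) and leaving out each library were also used.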

Additional observations from a re-analysis of the deposited data

How the results depend on the processing

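No alternative called a member at an adjusted p under 0.05. Over all tested sequences, DESeq2 called 7 of 338 and the fit without a filter 18 of 1283. Without SS 1B, SD 4B or SD 21A, 0 of all 356, 359 and 359 sequences were called. The 0 members of those fits therefore cannot show that members lack a difference. No member's seed was called either with DESeq2, RLE size factors, mappable reads, no filter, bases 2 to 7, the replicate block or 1 library left out, the alternatives run on seeds. The 3 members lower in SS at an unadjusted p under 0.05 became 1, dre-miR-92a-3p_R+1, with DESeq2, with RLE size factors, with the authors' size parameters and with limma after adding 10. The count was also 1 with mappable reads as library size (dre-miR-25-5p_2ss18GA19CT) and without a filter (ssa-miR-106b-3p_R-1_1ss3TC), which are not among the 3, and 0 with the replicate block. Leaving out 1 library gave 0 to 2 such members, with 0 without SS 4A, without SS 1B and without SD 21A. Over all sequences, 8 to 14 were lower at this cut in the fits of 338. The fit without a filter had 23 of 1283 lower, and those with 1 library left out 7 to 26 of 353 to 361. The 0 members higher in SS became 2 without a filter (ssa-mir-18b-p5 and ipu-miR-19b_1ss17AT), and 0 to 1 when 1 library was left out (dre-miR-18b-5p_1ss11TC without SS 6A, ssa-miR-19a-3p_R+1 without SD 4B). The median log2 fold change of tested members, 0.07, was -0.12 with mappable reads and ranged from -0.11 to 0.20 when 1 library was left out. With mappable reads the log2 ratio of group sums moved from 0.21 to 0.00012 for the miR-17 family and from -0.27 to -0.50 for the miR-92 family. Among 15 named members with 254 alternative values, the sign turned in 11, all in 3 members that were close to 0. For ssa-miR-17-5p_R-1 it was -0.12 with mappable reads, -0.19 with the replicate block, and below 0 without SS 4A, SS 1B, SD 6B or SD 21A, in a range from -0.081 to 0.24 over all libraries left out. For ssa-miR-106a-5p it was -0.12 with mappable reads and, with 1 library left out, from -0.051 to 0.20, below 0 without SS 4A and SD 6B. For dre-miR-92b-3p_R+1 it was 0.048 with the replicate block, and from -0.26 to 0.048 with 1 library left out, above 0 without SD 21A. Of the 8 tested members of the miR-92 family, 7 lay below 0 with the replicate block and without SD 21A. Of the other 15, 10 lay above 0 with the replicate block and 9 to 14 with 1 library left out. The cause was not tested. Numbers 4 and 6 are each carried by an SS and an SD fish and no source used here says what they mark. Deviations from the group mean correlated at 0.15 for number 4 and 0.45 for number 6, over tested sequences. Pairs of unlike number ran from -0.37 to 0.30. Deviations within a group sum to 0, so these correlations depend on each other. They cannot decide whether a shared number marks related fish. Numbers 1 and 21 are carried by 1 library each, so the replicate block compares the groups within numbers 4 and 6 alone. That fit left 0 of all 338 tested sequences past the threshold, so its 0 members cannot show that members lack a difference. Low depth limits the 48 members that were not tested.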
